A study of Mus musculus with 6 samples.

Results

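Interleukins are secreted signals of leukocytes and of the tissue cells around them, and each acts through a receptor built of 2 or more chains. The interleukin genes described here are the rows of the mouse gene table whose symbol starts with Il and a digit and that had at least 10 reads summed over the 6 tumours. A pair of further symbols was set aside by the same rule and is not analysed here. This gave 61 of the 24421 gene symbols in the table. The rule also takes in Il1bos, an antisense RNA of Il1b. Nearest to the threshold were Il6 and Il22ra1 with 10 reads each, just inside it, and Il9r with 7 reads and Il4i1 with 6, just outside it. Of the 20 symbols under 10 reads, 11 had no read, among them Il17a and Il17f.

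RNA was sequenced from 6 mouse neurofibromas, which are benign nerve sheath tumours, on a C57BL/6J background. The group miR155KO_Nf1KO held 3 tumours (MiRNC149, MiRNC640 and MiRNC670) with a knockout of the microRNA miR-155, and the group Nf1KO held 3 tumours (Nf803, Nf809 and Nf827) that were not labelled with that knockout. All 6 tumours carried Nf1fl/fl and DhhCre. In that transgene the Dhh promoter, active in Schwann cell precursors, drives Cre, so Nf1 is deleted in their lineage and is not targeted in leukocytes. Whether the miR-155 knockout covers the whole animal is not stated in the labels. No drug was given. Mice were kept to a set time or tumour size, and the labels give no age, sex or animal for a tumour. The p-values therefore rest on differences among these samples alone, which may be partly technical. The comparison was made to look for possible miR-155 targets.

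Read totals ran from 13061129 to 16333181 reads. Mir155hg, the host transcript of miR-155, had 5, 3 and 1 reads in MiRNC149, MiRNC640 and MiRNC670, against 57, 66 and 71 reads in Nf803, Nf809 and Nf827. The Schwann cell gene Sox10 was present in every tumour, at 277 to 333 CPM in miR155KO_Nf1KO and 215 to 263 CPM in Nf1KO. CPM here is reads per 1e6 reads of the scaled library. By reads of Xist and Y-linked genes, MiRNC149, Nf803 and Nf827 were female and the other tumours male. Skeletal muscle markers stood high in MiRNC670 and Nf809, at summed levels of 2101 and 2281 CPM, against 5.89 to 382 CPM in the other tumours. Adipocyte markers stood high in MiRNC640, at 2117 CPM, against 36.3 to 580.2 CPM in the other tumours, and their part in the results that change without MiRNC640 was not tested.

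As background, interleukin receptors fall into families that share chains. The IL-1 family signals through receptors with a Toll-like intracellular domain and the adaptor MyD88, whereas the common gamma chain, IL-6, IL-12 and IL-10 families signal through JAK kinases and STAT factors, and the IL-17 family through the adaptor Act1. In tissue, IL-33 is held in the nucleus of stromal cells and released on damage, IL-1β is made mainly by myeloid cells, and the receptor chains of the common gamma family are found mainly on lymphocytes and myeloid cells.

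Of the 61 genes, 42 had enough reads to be tested in the fit over all 15604 genes, and 8 were lower in miR155KO_Nf1KO at an adjusted p under 0.05, with none higher. These were the receptor chains Il18rap, Il18r1, Il21r, Il2ra, Il2rg and Il10ra, the alarmin Il33 and the IL-1 antagonist Il1rn. Their decreases ran from 1.79-fold for Il33 to 7.04-fold for Il21r. The 8 are 19% of the tested interleukin genes, where 4.74% of all genes tested were called lower and 5.22% higher, 9.96% in either direction. The median log2 fold change was -0.76 over the 42 tested interleukin genes and 0.01 over all genes tested, and 30 of the 42 had a negative value (49.5% of all genes tested). An unadjusted p under 0.05 was seen in 23 of the 42 (26.7% of all genes tested). In 20 of the 42, or 47.6%, all 3 tumours of miR155KO_Nf1KO lay below all 3 of Nf1KO (16.3% of all genes tested), and in 4, or 9.52%, all 3 lay above (16.3% of all genes tested). Among the tested genes, Il1r2 had under 10 reads in each tumour of miR155KO_Nf1KO, and Il5 and Il17re in each tumour of Nf1KO.

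The count of calls rested on the full set of tumours in edgeR, for these genes and for all genes. It was 1 without MiRNC640 and 0 without MiRNC670, Nf803 or Nf827, while all 8 kept a negative log2 fold change in each of these fits. The count of all genes called lower was 43 without MiRNC640 and 0 without MiRNC670, Nf803 or Nf827, and that of all genes called higher 99 and again 0. Without MiRNC149, 8 were called lower, of which Il18rap, Il21r and Il33 were among the 8 called with all tumours, and without Nf809, 12 were called lower, all 8 among them, and 3 higher. With sex as a covariate and with limma voom, Il18rap, Il21r and Il33 were the called genes that stayed past the threshold. DESeq2 called 18 interleukin genes lower (8.29% of the genes it tested) and 3 higher (8.49%), and all 8 were among the 18. The genes it added were Il1b, Il1r2, Il1rap, Il4ra, Il13ra1, Il2rb, Il7r, Il27ra, Il17ra and Il12b among the lower and Il31ra, Il17re and Il1f9 among the higher.

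**Figure D1:**
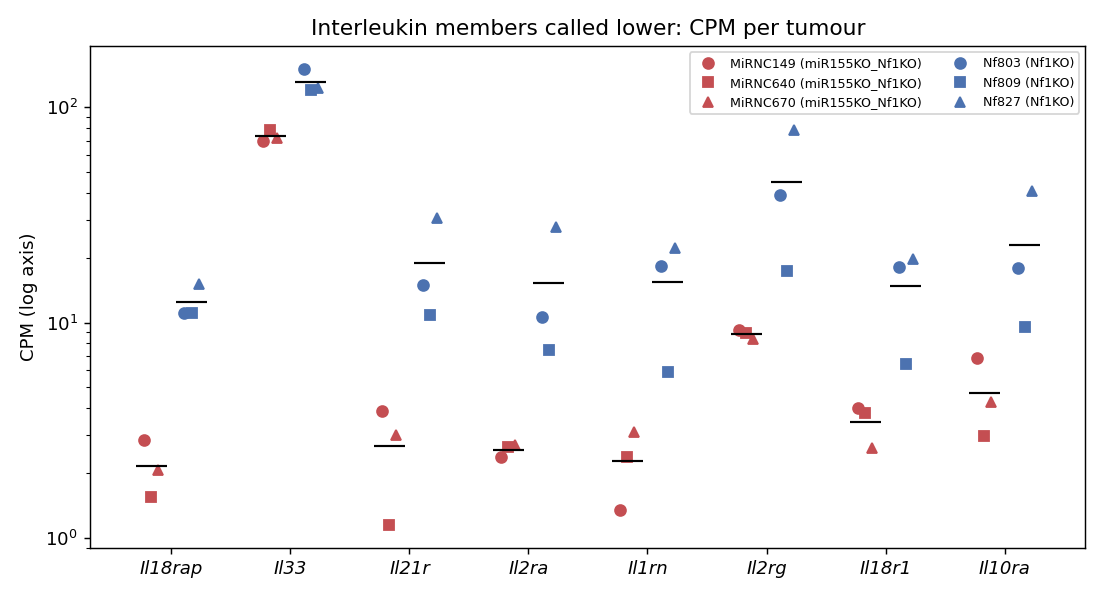
CPM on a log axis for the 8 interleukin genes called lower, with 1 point per tumour (red for miR155KO_Nf1KO, blue for Nf1KO) and a black line at the mean of each group. In every one of the 8 the red points lie below the blue ones, and the lowest blue point is Nf809 in all but Il18rap.

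Since the groups differ in miR-155, the genes were searched for sites of miR-155-5p in their longest annotated 3′ UTR. The mature sequence (RefSeq, GRCm38.p6, chr16:84714143-84714165, plus strand) is shown with its seed, bases 2 to 8, in capitals. Below it stand the 3 sites of the longest class found in these genes, an 8-base match, and the 7-base match of Il18r1, which is the 1 called gene with a site. Capitals mark the match in the DNA letters of the transcript strand, from GENCODE M21 on GRCm38.
mmu-miR-155-5p: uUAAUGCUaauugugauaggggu
Il7r, chr15:9506552-9506581, minus strand: ttgggtgccttAGCATTAAaattctgttta
Il15ra, chr2:11733957-11733986, plus strand: tcagtacaaaaAGCATTAAaattatcaaca
Il17rd, chr14:27102646-27102675, plus strand: cagattggaccAGCATTAAgggggttgctg
Il18r1, chr1:40499092-40499120, plus strand: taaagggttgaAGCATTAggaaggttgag
A site of 7 or 8 bases (AGCATTAA, AGCATTA or GCATTAA, transcript strand) was found in 10 of the 42 tested interleukin genes, or 23.8%, and in 14.8% of the 14035 tested genes with a 3′ UTR. With all tumours, none of the 10 was called higher by edgeR, where 5.22% of all genes tested were. DESeq2 with all tumours called Il18r1, Il1rap, Il4ra, Il7r and Il17ra lower (8.29% of the genes it tested) and none of the 10 higher. Without Nf809, DESeq2 called 1 of them higher, Il1rapl1. The genes with an 8-base site had log2 fold changes of -1.74 (SE 0.65) for Il7r, 0.27 (SE 0.28) for Il15ra and 0.14 (SE 0.20) for Il17rd. None of these 3 genes was called by edgeR with all tumours. Among the other site genes, Il1rap, Il1rl2, Il4ra, Il6ra and Il17ra had log2 fold changes between -1.07 and -0.42 and Il1rapl1 had 0.90. These were not called by edgeR with all tumours either. Without MiRNC149, edgeR called Il1rap, Il4ra and Il17ra lower. A match is only a match of letters and was not tested as a site of regulation.

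The ligands of the IL-1 family were led by Il33, which encodes an alarmin that acts on mast cells, type 2 innate lymphoid cells and regulatory T cells through the receptor ST2 (Il33 lies on chromosome 19, 29925114 to 29960718, GRCm38). Il33 stood at 69.7, 78.6 and 72.1 CPM in MiRNC149, MiRNC640 and MiRNC670, against 151, 120.4 and 123 CPM in Nf803, Nf809 and Nf827. The groups did not overlap and the spread within each was small, and the log2 fold change was -0.84 (SE 0.13, edgeR adjusted p = 0.0227). Per kilobase of exon, Il33 was second in level among the interleukin genes, at 25.5 ± 1.61 CPM per kb in miR155KO_Nf1KO and 45.5 ± 5.93 CPM per kb in Nf1KO (SD, n = 3 each). Il1rl1, which encodes ST2, had 10.04, 5.94 and 8.40 CPM in miR155KO_Nf1KO, against 28.4, 6.80 and 17.7 CPM in Nf1KO. Its groups overlapped through Nf809, and the gene was not called (edgeR adjusted p = 0.199). Without Nf809, edgeR called Il1rl1 lower.

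Il1rn encodes the receptor antagonist that blocks IL-1α and IL-1β. It had 1.35, 2.36 and 3.09 CPM in MiRNC149, MiRNC640 and MiRNC670, against 18.3, 5.87 and 22.1 CPM in Nf803, Nf809 and Nf827. Even the lowest Nf1KO tumour, Nf809, lay above the highest miR155KO_Nf1KO tumour, and the log2 fold change was -2.77 (SE 0.55, edgeR adjusted p = 0.029). Il1b, the inflammatory cytokine that the inflammasome matures, had 1.87, 1.55 and 1.58 CPM in miR155KO_Nf1KO, against 9.94, 2.60 and 21.4 CPM in Nf1KO. The groups did not overlap, but Nf809 lay close to miR155KO_Nf1KO, and Il1b missed the threshold (log2 fold change -2.75, SE 0.71, edgeR adjusted p = 0.0529). It was called with upper quartile scaling, without Nf809, in DESeq2 and with no filter on low counts, a setting that called 3.74% of genes lower and 4.1% higher. Exons of Il1b overlap those of Il1bos on the other strand, and the strand setting of the counting is not given in the sources used here, so their reads may not be separate.

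The other tested IL-1 ligands were not called by edgeR with all tumours. DESeq2 called Il18 lower without MiRNC149. The IL-1 family ligand Il1f9, under the low-count filter, was called higher by DESeq2 with all tumours and by edgeR without Nf809. Il18, which drives interferon-gamma production, had 9.85, 6.01 and 3.25 CPM in miR155KO_Nf1KO, against 10.02, 15.6 and 10.9 CPM in Nf1KO (log2 fold change -0.93, SE 0.41). Il18bp, its secreted decoy, had 14.0 to 14.9 CPM in miR155KO_Nf1KO and 16.5 to 23.6 CPM in Nf1KO, a log2 fold change of -0.47 (SE 0.19), and its exons overlap those of Numa1. Both kept their groups apart by a narrow margin. Il1a, the alarmin form of IL-1, was low and overlapped, at 0.158 to 0.901 CPM in miR155KO_Nf1KO and 0.124 to 2.69 CPM in Nf1KO.

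Among the receptors of the IL-1 family, both chains of the IL-18 receptor fell. Il18rap, the accessory chain (chromosome 1, 40515362 to 40551705), had 2.83, 1.55 and 2.06 CPM in MiRNC149, MiRNC640 and MiRNC670, against 11.03, 11.1 and 15.1 CPM in Nf803, Nf809 and Nf827. It had the smallest p of the interleukin genes, with a log2 fold change of -2.53 (SE 0.32, edgeR adjusted p = 0.0186). Il18r1, the ligand-binding chain (chromosome 1, 40465552 to 40500854), had 3.99, 3.78 and 2.61 CPM in miR155KO_Nf1KO, against 18.1, 6.43 and 19.8 CPM in Nf1KO. Nf809 lay nearer to miR155KO_Nf1KO than to the other Nf1KO tumours for Il18r1 but not for Il18rap, and the log2 fold change of Il18r1 was -2.09 (SE 0.45, edgeR adjusted p = 0.0345).

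These chains are neighbours in a run of 6 IL-1 receptor genes on the plus strand of chromosome 1, in the order Il1r2, Il1r1, Il1rl2, Il1rl1, Il18r1 and Il18rap, from 40074079 to 40551705. Their log2 fold changes in that order were -2.93 (SE 0.89), -0.44 (SE 0.28), -0.81 (SE 0.28), -1.12 (SE 0.49), -2.09 (SE 0.45) and -2.53 (SE 0.32), and the last pair was called. Il1r2, a decoy receptor for IL-1, had 6, 0 and 2 reads in miR155KO_Nf1KO, against 25, 20 and 20 reads in Nf1KO (edgeR adjusted p = 0.0822). Il1r1, the signalling receptor for IL-1, was by contrast one of the more abundant chains, with 118, 62.2 and 61.2 CPM in miR155KO_Nf1KO, against 107, 128 and 91.8 CPM in Nf1KO. Its groups overlapped. Il1rl2, the receptor for IL-36, overlapped too, at 8.47 to 13.1 CPM in miR155KO_Nf1KO and 12.4 to 21.8 CPM in Nf1KO.

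Il1rap, on chromosome 16, encodes the accessory chain shared by the receptors for IL-1, IL-33 and IL-36. It had 128, 81.1 and 89.0 CPM in MiRNC149, MiRNC640 and MiRNC670, against 199.6, 127 and 158 CPM in Nf803, Nf809 and Nf827, and MiRNC149 and Nf809 were level (log2 fold change -0.70, SE 0.23, edgeR adjusted p = 0.0991). Il1rapl1, a relative that organises synapses in neurons, had 9.01, 5.20 and 9.90 CPM in miR155KO_Nf1KO, against 4.21, 6.24 and 2.41 CPM in Nf1KO (log2 fold change 0.90, SE 0.42). It was not called, and the groups overlapped through MiRNC640 and Nf809.

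In the common gamma chain family, 3 of 8 tested receptor genes fell and 7 of the 8 had all miR155KO_Nf1KO tumours below all Nf1KO tumours, where 4.74% of all genes tested fell and 16.3% lay wholly below. Il2rg encodes the gamma chain itself, which the receptors for IL-2, IL-4, IL-7, IL-9, IL-15 and IL-21 share (chromosome X, 101264378 to 101268255). Exons of Il2rg overlap those of Gm20489 on the same strand, so their reads may not be separate. Il2rg had 9.27, 8.98 and 8.40 CPM in MiRNC149, MiRNC640 and MiRNC670, against 39.0, 17.3 and 78.4 CPM in Nf803, Nf809 and Nf827. The miR155KO_Nf1KO tumours were nearly equal while the Nf1KO tumours spread widely, and the log2 fold change was -2.34 (SE 0.50, edgeR adjusted p = 0.0338).

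Il2ra, which encodes CD25, the high-affinity chain for IL-2 found on regulatory and activated T cells, had 2.38, 2.63 and 2.69 CPM in miR155KO_Nf1KO, against 10.6, 7.48 and 27.9 CPM in Nf1KO. The log2 fold change was -2.57 (SE 0.51, edgeR adjusted p = 0.029). Il21r, the receptor for the T cell cytokine IL-21, had 3.86, 1.15 and 3.01 CPM in miR155KO_Nf1KO, against 15.0, 10.9 and 30.7 CPM in Nf1KO, a log2 fold change of -2.82 (SE 0.55, edgeR adjusted p = 0.0277). For Il2rg, Il2ra and Il21r alike, Nf827 was the highest tumour and Nf809 the lowest of Nf1KO.

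The remaining chains were not called by edgeR with all tumours and group as the sole term. With sex as a covariate, edgeR called Il13ra1 lower. Il4ra, the receptor for IL-4 and, paired with Il13ra1, for IL-13, had 26.3, 12.4 and 16.5 CPM in miR155KO_Nf1KO, against 29.6, 32.1 and 45.5 CPM in Nf1KO (log2 fold change -0.96, SE 0.31). Il13ra1 had 29.3, 11.1 and 13.8 CPM in miR155KO_Nf1KO, against 42.3, 30.4 and 54.5 CPM in Nf1KO (log2 fold change -1.23, SE 0.40). In both, MiRNC149 came close to the lowest Nf1KO tumour, and both were called lower without MiRNC149. Il2rb, shared by the receptors for IL-2 and IL-15, showed a log2 fold change of -1.86 (SE 0.64). For Il7r, the receptor for the survival factor IL-7, it was -1.74 (SE 0.65). Il7r was lowest in MiRNC640 (0.743 CPM) and highest in Nf827 (16.3 CPM). Il15ra, which presents IL-15 to neighbouring cells, overlapped, at 11.8 to 24.9 CPM in miR155KO_Nf1KO and 14.2 to 17.8 CPM in Nf1KO.

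The ligands of the family were low and moved less evenly. Il7, made by stromal cells, had 4.96, 3.99 and 4.99 CPM in miR155KO_Nf1KO, against 1.67, 3.83 and 1.47 CPM in Nf1KO. Its groups were apart by a small step between MiRNC640 and Nf809, and it was not called (log2 fold change 0.99, SE 0.45). Without Nf809, edgeR called it higher. Il15, which supports natural killer cells, had 6.62 to 8.88 CPM in miR155KO_Nf1KO and 10.1 to 13.9 CPM in Nf1KO (log2 fold change -0.66, SE 0.24). Il4 had 20, 5 and 8 reads in miR155KO_Nf1KO, against 13, 4 and 10 reads in Nf1KO, and the groups overlapped. Il13 had 7, 0 and 0 reads in miR155KO_Nf1KO, against 1, 4 and 0 reads in Nf1KO, and was too low to test.

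Of the common beta chain ligands, Il5, the growth factor of eosinophils, had 46, 20 and 15 reads in miR155KO_Nf1KO, against 7, 0 and 6 reads in Nf1KO. Its groups did not overlap, but the log2 fold change of 2.59 had an SE of 0.96 and was not called (edgeR adjusted p = 0.135). Il3ra, the binding chain for IL-3, had 17 reads in all of miR155KO_Nf1KO and 25 in all of Nf1KO.

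**Figure D2:**
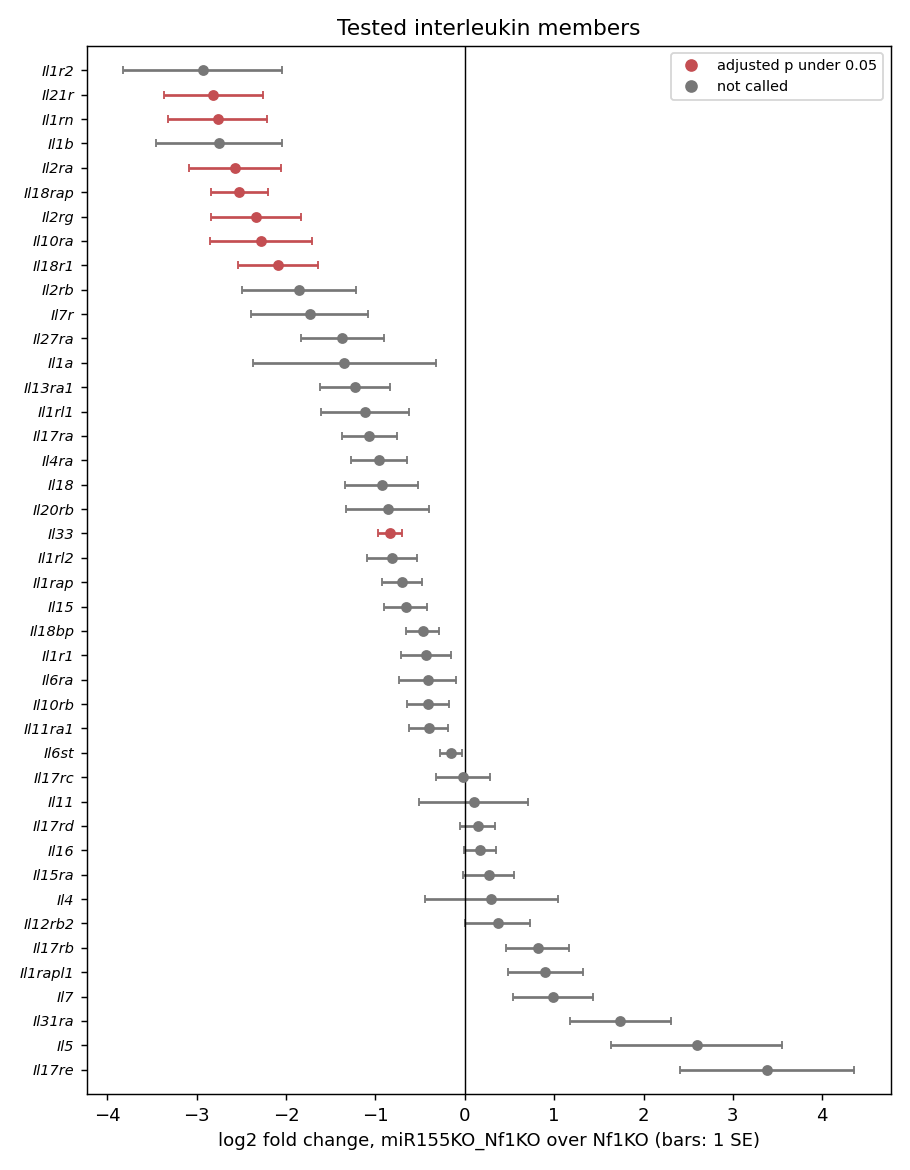
Log2 fold change, miR155KO_Nf1KO over Nf1KO, of the 42 tested interleukin genes in rising order from the top, with bars of 1 SE and called genes in red. The 8 called genes lie left of 0, and most genes with a negative value and no call have bars wider than that of Il33.

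The IL-6 and IL-12 families held no called gene in edgeR with all tumours. Il6st encodes gp130, the signalling chain of the IL-6 family, and had the highest level per kilobase of the interleukin genes, at 76.2 ± 6.50 CPM per kb in miR155KO_Nf1KO and 85.0 ± 6.60 CPM per kb in Nf1KO (SD, n = 3 each). Its log2 fold change was -0.16 (SE 0.12), and the groups overlapped. For the binding chains, the log2 fold change was -0.42 (SE 0.32) in Il6ra and -0.41 (SE 0.22) in Il11ra1. Il31ra, which sensory neurons of itch express, had 12.6, 4.59 and 14.3 CPM in MiRNC149, MiRNC640 and MiRNC670, against 2.25, 5.32 and 1.81 CPM in Nf803, Nf809 and Nf827. MiRNC640 and Nf809 overlapped, and the log2 fold change of 1.74 (SE 0.56) was not called (edgeR adjusted p = 0.0988). It was called higher by edgeR without Nf809 and by DESeq2 with all tumours.

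Il27ra, the receptor for IL-27, had 3.35, 2.36 and 5.39 CPM in miR155KO_Nf1KO, against 8.64, 5.44 and 14.6 CPM in Nf1KO, with MiRNC670 and Nf809 almost level (log2 fold change -1.37, SE 0.46). Its exons overlap those of Palm3. Il12rb2, a chain of the receptor for IL-12, overlapped between groups. Among the ligands, Il11 was the 1 gene with enough reads to test, and it had 0.708 to 1.58 CPM in miR155KO_Nf1KO and 0.495 to 1.52 CPM in Nf1KO.

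The remaining genes of these families were below the filter and are given in reads. Il12b encodes the subunit shared by IL-12 and IL-23 and is made by activated dendritic cells and macrophages. It had no read in any miR155KO_Nf1KO tumour, against 0, 11 and 40 reads in Nf803, Nf809 and Nf827. With a floor of 3 reads over the group in place of 0, it was 16.3-fold lower in miR155KO_Nf1KO. The 95% exact binomial interval of the pooled ratio ran from 0 to 0.0784, and that upper end is 12.8-fold lower. Nf803 had no read either, so the groups overlapped, and 40 of the 51 reads came from Nf827. The adjusted p of Il12b was 0.136 in edgeR with no filter on low counts and 0.0226 in DESeq2. Il27 had 0, 1 and 0 reads in miR155KO_Nf1KO, against 1, 9 and 10 reads in Nf1KO, so the pooled ratio was 0.0522 (95% exact binomial interval 0.00126 to 0.327). Neither edgeR with no filter (adjusted p = 0.186) nor DESeq2 (adjusted p = 0.152) called Il27. Il23r had 5, 0 and 0 reads in miR155KO_Nf1KO, against 20, 1 and 7 reads in Nf1KO, and Il12rb1 had 10, 5 and 0 reads in miR155KO_Nf1KO, against 22, 1 and 5 reads in Nf1KO. Il12a had 25 reads in all of miR155KO_Nf1KO and 22 in all of Nf1KO, and Il6 had 8 in miR155KO_Nf1KO and 2 in Nf1KO. No interval covers more than counting error.

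In the IL-10 family, the receptor chain Il10ra fell. Il10ra encodes the binding chain for the anti-inflammatory cytokine IL-10 and is largely a leukocyte gene (chromosome 9, 45253837 to 45269149). It had 6.82, 2.97 and 4.28 CPM in MiRNC149, MiRNC640 and MiRNC670, against 17.9, 9.58 and 41.0 CPM in Nf803, Nf809 and Nf827. MiRNC149 and Nf809 were the nearest pair across the groups, and the log2 fold change was -2.28 (SE 0.57, edgeR adjusted p = 0.0487), close to the threshold. The call was lost with robust estimation in edgeR, with voom and with sex as a covariate. Il10rb, the widely expressed second chain, had 17.7 to 21.7 CPM in miR155KO_Nf1KO and 18.5 to 33.1 CPM in Nf1KO, and overlapped (log2 fold change -0.41, SE 0.24). Il20rb, a chain of the receptor for IL-20, overlapped as well.

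Il10 itself had 1, 0 and 4 reads in miR155KO_Nf1KO, against 12, 11 and 21 reads in Nf1KO, so the pooled ratio was 0.119 (95% exact binomial interval 0.0367 to 0.299). The groups did not overlap, and the adjusted p was 0.172 in edgeR with no filter on low counts and 0.0736 in DESeq2. Il22ra2, a secreted inhibitor of IL-22, had 3, 1 and 1 reads in miR155KO_Nf1KO, against 0, 18 and 24 reads in Nf1KO, so Nf803 stood with miR155KO_Nf1KO. Il22ra1 had 8 reads in all of miR155KO_Nf1KO and 2 in all of Nf1KO.

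The IL-17 receptors did not move together. Il17ra, the chain common to the family, had 80.7, 39.2 and 48.5 CPM in MiRNC149, MiRNC640 and MiRNC670, against 94.1, 103.5 and 156 CPM in Nf803, Nf809 and Nf827. Its groups did not overlap, and it was not called (log2 fold change -1.07, SE 0.31, edgeR adjusted p = 0.0717). Il17re, the epithelial receptor chain for IL-17C, had 13, 33 and 9 reads in miR155KO_Nf1KO, against 3, 0 and 2 reads in Nf1KO (log2 fold change 3.38, SE 0.97, edgeR adjusted p = 0.0713). Il17rb, the chain for IL-25, had 7.28, 10.3 and 12.8 CPM in miR155KO_Nf1KO, against 6.90, 6.80 and 3.48 CPM in Nf1KO, and its exons overlap those of Actr8. The log2 fold change was -0.02 (SE 0.30) for Il17rc and 0.14 (SE 0.20) for Il17rd, an inhibitor of FGF signalling. The ligands Il17b, Il17c, Il17d and Il25 had 2 to 28 reads in all of miR155KO_Nf1KO and 10 to 29 in all of Nf1KO, and were not tested.

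Outside these families, Il16, a chemoattractant for cells that carry CD4 and also made in a neuronal form, had 159, 145 and 104 CPM in miR155KO_Nf1KO, against 109.9, 138 and 116 CPM in Nf1KO, and overlapped. Il1f9, which encodes IL-36γ, went against the main direction of its family. It had 15, 8 and 12 reads in miR155KO_Nf1KO, against 0, 1 and 0 reads in Nf1KO, so the pooled ratio was 36.6 (95% exact binomial interval 6.15 to 1490). It did not reach the filter, and its adjusted p was 0.0542 in edgeR with no filter and 0.0127 in DESeq2. Il13ra2, a decoy for IL-13, had 0, 1 and 0 reads in miR155KO_Nf1KO, against 2, 3 and 15 reads in Nf1KO. Il1rapl2 had 8 reads in all of miR155KO_Nf1KO and 9 in all of Nf1KO, and Il1bos had 7 in miR155KO_Nf1KO and 37 in Nf1KO.

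**Figure D3:**
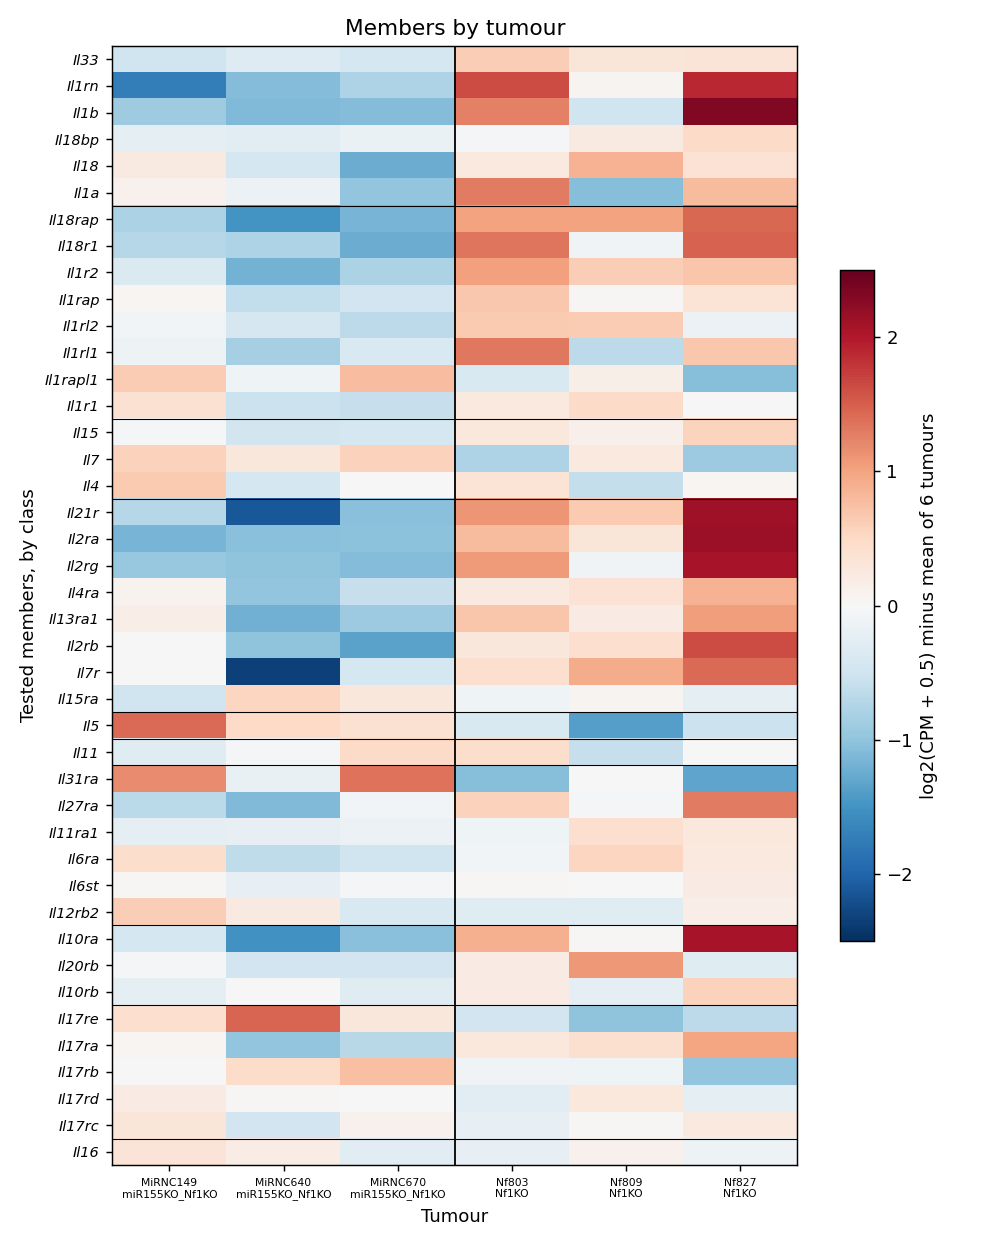
Colour gives log2(CPM + 0.5) minus its mean over the 6 tumours for each of the 42 tested interleukin genes, in rows grouped by family, with miR155KO_Nf1KO tumours left of the line and Nf1KO tumours right of it. The deepest red is Il1b in Nf827, whereas Nf809 is paler than Nf803 and Nf827 for Il1rn, Il18r1, Il2rg and Il10ra.

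The tumours of a group were unequal for these genes. Of the 42, Nf827 was the highest Nf1KO tumour in 20 and Nf809 the lowest in 22, and among the 8 called genes Nf827 was highest in 7 and Nf809 lowest in 7. In miR155KO_Nf1KO, MiRNC149 was the highest tumour in 28 of the 42 and MiRNC640 the lowest in 22. Among the 8 called genes, MiRNC149 was highest in 5 and lowest in 3, and MiRNC640 was also lowest in 3. The share of all genes tested with each order was not counted. Leukocyte markers had a like order to that of the 42 genes, which the called genes followed less closely in miR155KO_Nf1KO. The 8 pan-leukocyte markers, Ptprc among them, summed to 347, 187 and 280 CPM in MiRNC149, MiRNC640 and MiRNC670, against 969, 575 and 1694 CPM in Nf803, Nf809 and Nf827. Of the 8 markers 7 fell (4.74% of all genes tested), Coro1a with the smallest p (log2 fold change -1.88). Their median log2 fold change was -2.25, where that of all genes tested was 0.01. With bulk tissue, fewer cells of a type and less RNA per cell cannot be told apart.

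Of the cell types that can carry these receptors, macrophages, dendritic cells, T cells, natural killer cells and B cells had lower marker sums in all miR155KO_Nf1KO tumours, and neutrophils and mast cells overlapped. Summed macrophage markers ran from 555 to 1136 CPM in miR155KO_Nf1KO and from 1424 to 2454 CPM in Nf1KO (5 of 10 fell, Itgam with the smallest p, log2 fold change -2.44). Itgam alone averaged 137 CPM in miR155KO_Nf1KO and 745 CPM in Nf1KO. The macrophage list was not uniform: 4 of the 10 overlapped between groups, and Mertk had a positive log2 fold change, 0.38, while the other 9 were negative. Dendritic cell markers ran from 190 to 313 CPM in miR155KO_Nf1KO and from 645 to 2545 CPM in Nf1KO (5 of 8 fell). T cell markers were low, at 6.08 to 8.55 CPM in miR155KO_Nf1KO and 14.8 to 59.9 CPM in Nf1KO, with 0 of 5 tested called by edgeR and 4 of 5 at an unadjusted p under 0.05. Natural killer cell markers summed to 5.15 to 10.3 CPM in miR155KO_Nf1KO and 19.2 to 52.6 CPM in Nf1KO (1 of 7 fell). Of these 7, 4 overlapped between groups, and Prf1 and Gzma had positive log2 fold changes of 0.46 and 0.44. B cell markers summed to 2.03 to 4.67 CPM in miR155KO_Nf1KO and 5.69 to 21.5 CPM in Nf1KO (1 of 4 fell). Neutrophil markers summed to 14.7 to 45.8 CPM in miR155KO_Nf1KO and 39.5 to 120.4 CPM in Nf1KO (1 of 6 fell). Mast cell markers overlapped, at 77.2 to 87.3 CPM in miR155KO_Nf1KO and 50.2 to 101 CPM in Nf1KO. Fibroblast markers, of the stromal cells that can hold Il33, summed to 4359 to 6043 CPM in miR155KO_Nf1KO and 10310 to 10870 CPM in Nf1KO. Sensory neuron markers, beside Il31ra and Il1rapl1, summed to 5373 to 8517 CPM in miR155KO_Nf1KO and 1299 to 2570 CPM in Nf1KO (7 of 10 rose, Nefh with the smallest p, log2 fold change 1.82). Beside these counts of markers, 4.74% of all genes tested fell and 5.22% rose. No marker in these lists was at 0 in every tumour, and the part of any cell type in the interleukin results was not tested.

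**Figure D4:**
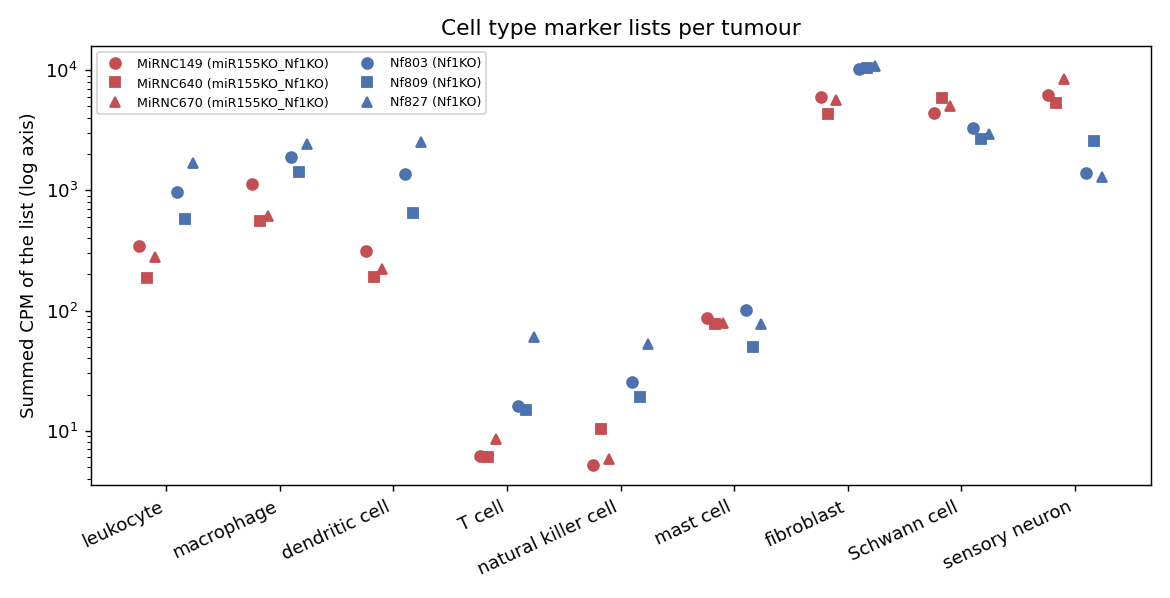
Summed CPM of 9 cell type marker lists on a log axis, with 1 point per tumour (red for miR155KO_Nf1KO, blue for Nf1KO). Sums for leukocytes, macrophages, dendritic cells, T cells, natural killer cells and fibroblasts lie lower in all miR155KO_Nf1KO tumours, Schwann cell and sensory neuron sums lie higher, and mast cell sums overlap.

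Set against the summed leukocyte markers of the same tumour, a scale added after the data were seen, 21 of the 42 tested interleukin genes had all miR155KO_Nf1KO tumours above all Nf1KO tumours (80.5% of all genes tested), 2 had all below (0.538% of all genes tested) and 19 overlapped. Among the 21 were Il6st, Il1rap, Il15, Il18bp and Il4ra, named here after their values were seen. The 2 below were the called genes Il18rap and Il21r, and the other 6 called genes overlapped. Il18rap had 0.816, 0.832 and 0.735 CPM per 100 CPM of leukocyte markers in MiRNC149, MiRNC640 and MiRNC670, against 1.14, 1.93 and 0.893 in Nf803, Nf809 and Nf827. For Il21r the values were 1.11, 0.615 and 1.07 in miR155KO_Nf1KO, against 1.55, 1.89 and 1.81 in Nf1KO. Il2rg, by contrast, had 2.67, 4.81 and 3.00 in miR155KO_Nf1KO, against 4.03, 3.01 and 4.63 in Nf1KO. Il33, a gene of stromal cells more than of leukocytes, had 20.1, 42.1 and 25.7 in miR155KO_Nf1KO, against 15.6, 20.9 and 7.25 in Nf1KO, so its groups overlapped on this scale with the higher mean in miR155KO_Nf1KO.

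The genes that carry interleukin signals inside the cell were counted in lists, beside 4.74% of all genes tested called lower and 5.22% called higher. Of 11 kinases and factors of the JAK and STAT families, 1 fell and none rose, with a median log2 fold change of -0.64. The 1 was Jak3, the kinase bound to the gamma chain, with a log2 fold change of -1.19 (SE 0.25, edgeR adjusted p = 0.0318). Jak3 averaged 4.68 ± 0.756 CPM in miR155KO_Nf1KO tumours and 10.7 ± 1.41 CPM in Nf1KO tumours (SD, n = 3 each). Tyk2, which pairs with the receptors for IL-12 and IL-10, had a log2 fold change of -0.64 (SE 0.18, edgeR adjusted p = 0.0682), and the factor Stat3 one of -0.05 (SE 0.14), not called. Of 7 tested SOCS feedback inhibitors, Socs5 fell (log2 fold change -0.95, SE 0.18, edgeR adjusted p = 0.0269), and Socs7 had a log2 fold change of 0.30 (SE 0.15). None of 12 genes of IL-1 receptor signalling was called by edgeR (1 had an unadjusted p under 0.05, Myd88, with a log2 fold change of -0.83, SE 0.32), with a median of -0.10. For Irak4, a kinase of that pathway, the value was -0.65 (SE 0.31).

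The inflammasome, which cuts the precursors of IL-1β and IL-18, held more called genes. Of 8 tested, 3 fell, all 8 had a negative log2 fold change, and the median was -1.27. Casp1, the protease that makes the cut, averaged 20.2 ± 3.94 CPM in miR155KO_Nf1KO tumours and 50.8 ± 0.618 CPM in Nf1KO (SD, n = 3 each), a log2 fold change of -1.33 (SE 0.18, edgeR adjusted p = 0.0197). The sensors Nlrc4 and Aim2 fell by 2.32 (SE 0.43) and 2.16 (SE 0.47) on the log2 scale, whereas the sensor Nlrp3 had a value of -1.34 (SE 0.50) and was not called. Among 15 tested partner cytokines and receptors, 2 fell, Crlf2, the receptor chain for TSLP (log2 fold change -2.19, SE 0.54, edgeR adjusted p = 0.0463), and Nfkbiz, a nuclear cofactor induced by IL-1 and IL-17 (log2 fold change -0.96, SE 0.24, edgeR adjusted p = 0.0485). Both calls lay near the threshold: Crlf2 lost its call in 15 of 22 alternative fits and Nfkbiz in 10 of 22, with sex as a covariate among them (adjusted p = 0.102 for Crlf2 and 0.07 for Nfkbiz), where the adjusted p ranged from 0.0218 to 0.169 for Crlf2 and from 0.000313 to 0.144 for Nfkbiz. Together these lists held 53 tested genes, of which 7 fell and 0 rose in edgeR (4.74% and 5.22% of all genes tested), and 23 had an unadjusted p under 0.05 (26.7% of all genes tested).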

How the data were processed

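The authors deposited a single unscaled table of read counts, with gene symbols in rows and tumours in columns. The aligner HISAT2 2.0.5, the counter featureCounts 1.5.2 and the build mm10 are named in the submitters' processing notes, and a Nextera XT kit in the labels' protocols. No source used here gives the strand setting, the annotation or how reads with several matches were handled. Reads of close copies and of overlapping genes may thus be shared, and 20 of the 61 genes have exons that overlap another gene. The overlap is on the same strand for Il2rg (with Gm20489), Il31ra (with Gm3226) and Il10rb (with Gm21970). Groups were read from the sample labels. The main test was the two-sided quasi-likelihood test of edgeR 4.0.16 in R 4.3.3, on TMM-scaled counts of genes kept by filterByExpr with a minimum count of 10 and a minimum total of 15. Group was the sole term, p-values were adjusted by Benjamini-Hochberg over all genes tested, and a gene was called under 0.05. SE values follow from the F statistic. CPM used TMM-scaled libraries, also for genes under the filter, and CPM per kb used the union of exons in GENCODE M21. The code was tested on simulated data. Replicate tumours differed by at least 22.1 times the Poisson variance, so none was treated as a repeat. Intervals and floors cover counting error alone, as reads lacking molecular identifiers are not independent molecules. Named genes were set by rule: called members, the 3 members with the smallest p in each family, tested ligands, members nearest the read threshold or with a miR-155-5p site, called genes and the 2 with the smallest p in each signalling list, the leukocyte, macrophage and neuron markers with the smallest p, and Mir155hg. Stat3, Nlrp3, Sox10, Ptprc and the other members were named after their values were seen. The members and lists were chosen with earlier results of these data known. Alternatives used DESeq2 1.42.0 as test or for size factors, limma 3.58.1 voom, upper quartile or total scaling, other filters, robust estimation, sex inferred from the reads as a covariate, an adjusted p under 0.1 and tumours left out.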

Additional observations from a re-analysis of the deposited data

How the results depend on the processing

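The 8 called interleukin genes had a negative log2 fold change under every alternative fit run, those without a tumour included. For interleukin members called lower the count was 4 with sex as a covariate, 3 with limma voom, 18 with DESeq2 and 14 at an adjusted p under 0.1, and for interleukin members called higher it was 3 with DESeq2 and 2 at 0.1. For all genes called lower the count was 1441 with DESeq2 and 1319 at 0.1, and for all genes called higher it was 1477 with DESeq2, 1383 at 0.1 and 534 with sex as a covariate. For signalling list members called lower it was 17 with DESeq2 and 15 at 0.1, and for signalling list members called higher 1 with DESeq2, 1 at 0.1 and 2 without MiRNC670 and Nf809. The cause of these shifts was not tested. With 1 tumour left out, edgeR called 0 to 12 interleukin genes lower and 0 to 3 higher, 0 to 11 signalling genes lower and 0 to 2 higher, and 0 to 1059 genes in all lower and 0 to 1183 higher. Beside the counts of 0 interleukin calls, 17 interleukin genes had an unadjusted p under 0.05 without MiRNC670, 25 without Nf803 and 16 without Nf827 (3240, 3335 and 3265 of all genes), and DESeq2 called 11, 14 and 10 lower in those sets. With each tumour left out in turn, chosen after seeing the data, DESeq2 called 10 to 20 interleukin genes lower, without Nf809 16, and 0 to 4 higher. It then called 6 to 21 signalling genes lower, without Nf809 19, and 0 to 2 higher. Of all genes it called 904 to 1573 lower and 853 to 1731 higher, without MiRNC149 1556 lower and 1630 higher. All 8 called genes were among its calls each time. The direction of 2 ligands that overlap between groups was not stable. The log2 fold change of Il4 was -0.342 without MiRNC149, -0.088 without Nf809 and 0.677 without Nf803, -0.022 without MiRNC670 and Nf809, and with DESeq2 -0.359 without MiRNC149 and -0.11 without Nf809. The log2 fold change of Il11 was -0.3 without MiRNC670, -0.229 without Nf809 and 0.488 without Nf803, -0.632 without MiRNC670 and Nf809, and with DESeq2 -0.284 without MiRNC670 and -0.248 without Nf809. No paired analysis was possible because the groups share no replicate numbers. Depth limits the 19 interleukin genes under the low-count filter, of which DESeq2 called Il12b and Il1f9.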
